A study of Homo sapiens with 24 samples.

Results

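Complex I (NADH:ubiquinone oxidoreductase) is the entry point for electrons from NADH into the mitochondrial respiratory chain. The genes described here are the nuclear genes whose symbols start with NDUF, which name most subunits of the complex and a set of its assembly factors. Of 25728 gene symbols listed, 51 start with NDUF, and the 47 that reached at least 1 CPM (counts scaled to library size) in at least 4 of the 24 libraries were kept. The 4 left out were the readthrough symbol NDUFC2-KCTD14 with 0 counts in every library, NDUFA4L2 with a highest value of 0.569 CPM, the pseudogene NDUFAF4P1 with a highest value of 0.156 CPM and the antisense symbol NDUFV2-AS1 with a highest value of 0.756 CPM. Just inside the threshold were the antisense symbols NDUFA6-AS1, at 1 CPM or more in 12 libraries, and NDUFB2-AS1, in 19 libraries. All 47 passed the filter on low counts that was used for testing. NDUFA4 carries the prefix, but its protein is a subunit of complex IV.

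Complex I has a peripheral arm in the matrix, which oxidises NADH and passes electrons along flavin and iron-sulfur clusters to ubiquinone, and a membrane arm, which pumps protons. A conserved core carries out the chemistry, and the nuclear part of that core lies in the peripheral arm, while the core of the membrane arm is encoded by mitochondrial DNA. Around the core sit supernumerary subunits, and assembly factors that are absent from the finished enzyme join the modules in order. The mitochondrially encoded subunits were not analysed here.

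RNA was sequenced from 3 human leukemia cell lines that the study describes as driven by EVI1, a transcription factor encoded by MECOM. The first, TF-1, came from an erythroleukemia, and the second, UT-7, from a megakaryoblastic leukemia, and both grow only with added growth factors. The last, UCSD-AML1, is a myeloid leukemia line with a chromosome 3 rearrangement at MECOM. Each was kept for 24 h with 3 mM cyclocreatine, a creatine analogue that creatine kinase phosphorylates, or with vehicle, so that the 6 groups had 4 libraries each and by the labels a treated group differed from its control in the compound alone. The labels call the treatments quadruplicate without saying that the replicates were separate cultures, so a p-value covers the spread between the libraries alone, which may be technical.

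Each library held between 12794998 and 21200662 counts, and tests covered 14588 genes. All 5 hematopoietic markers (PTPRC, CD33, CD34, KIT, SPN) had a mean of at least 1 CPM in each line, and the 4 lymphoid markers summed to at most 4.08 CPM in any library. Of 6 stromal and epithelial markers, 4 reached that mean in TF-1 (267 to 319 CPM summed), 1 in UT-7 (48.3 to 53.6 CPM) and 4 in UCSD-AML1 (162 to 171 CPM), and their part in the results was not tested. Megakaryocyte markers (4) summed to 611 to 946 CPM in TF-1, 935 to 1133 CPM in UT-7 and 738.5 to 862 CPM in UCSD-AML1. PF4 among them was at 0 counts in TF-1 and UT-7. Erythroid markers (5) summed to 547 to 713 CPM in TF-1, 1760 to 2096 CPM in UT-7 and 17.98 to 25.2 CPM in UCSD-AML1. The 4 granulocyte and monocyte markers summed to 5.55 to 10.85 CPM, 0.625 to 1.09 CPM and 318 to 329.5 CPM in the same order. ELANE among them was at 0 counts in TF-1 and UCSD-AML1. Cyclocreatine replicate 1 of TF-1 stood apart from the other 3 libraries of its group: cytosolic ribosomal protein genes (86 symbols) took 10.2% of its counts against 8.48 to 8.53%. Counts of members by role in TF-1, and the values of many members there, are therefore given with and without it. In bulk RNA, fewer cells of a kind and less RNA per cell cannot be told apart.

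Together the 47 genes took a small share of the counts, which was slightly larger after cyclocreatine in TF-1 and UCSD-AML1. In TF-1 the share was 0.317, 0.327, 0.317 and 0.311% in the vehicle libraries and 0.392, 0.336, 0.338 and 0.333% in the cyclocreatine libraries, so the groups did not overlap and replicate 1 was the highest. UT-7 had the largest mean share, with 0.354 to 0.368% under vehicle and 0.357 to 0.382% under cyclocreatine, and there the groups overlapped. In UCSD-AML1 the share was 0.296 to 0.304% under vehicle and 0.314 to 0.325% under cyclocreatine, without overlap. The share of ribosomal protein genes moved in the same direction in each line, from 6.33–6.61% to 8.48–10.2% in TF-1, from 5.85–6.09% to 6.83–7.39% in UT-7 and from 5.95–6.18% to 7.07–7.28% in UCSD-AML1. Whether the 2 shares are linked was not tested.

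**Figure D1:**
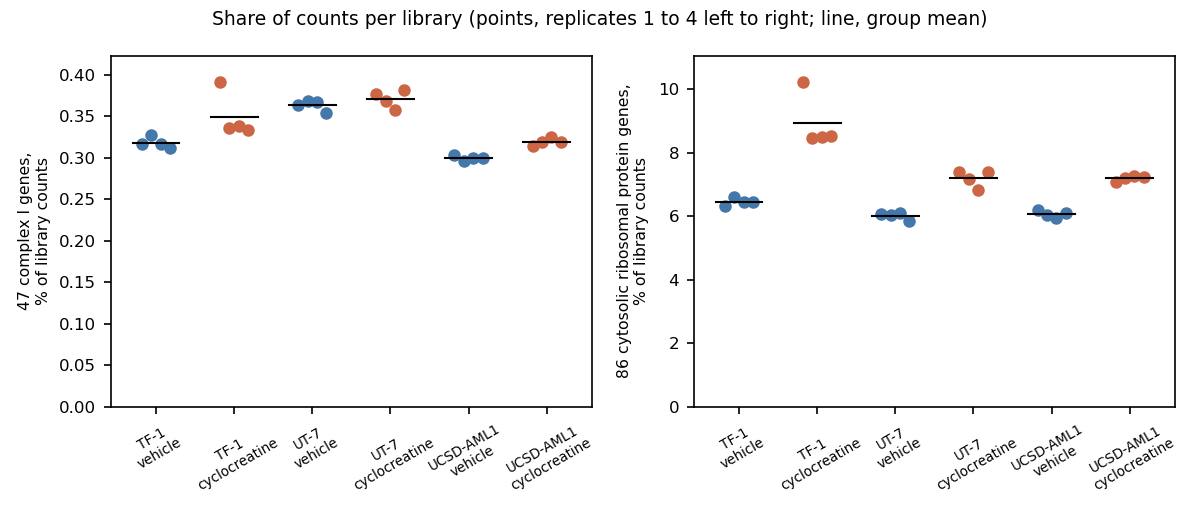
Share of library counts (%, vertical axes) taken by the 47 complex I genes (left) and by 86 cytosolic ribosomal protein genes (right) in the 6 groups; points are libraries in order of replicate, blue for vehicle and orange for cyclocreatine, and lines are group means. The first cyclocreatine library of TF-1, at 0.392% and 10.2%, lies above the other 3 of its group in both panels.

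Cyclocreatine changed single members by modest amounts, and more of them rose than fell in every line. In TF-1, 25 of 47 members rose (53.2%) and 1 fell, where 26.7% of all genes tested rose and 29.3% fell; a gene was called at an edgeR adjusted p under 0.05 over all 14588 genes. In UT-7, 15 rose (31.9%) and 2 fell, against 22.5% and 23.3% of all genes. In UCSD-AML1, 15 rose (31.9%) and 4 fell, against 19.1% and 21.3%. Counted in either direction, the 26, 17 and 19 members called in the 3 lines stood beside 56%, 45.9% and 40.5% of all genes, so no larger part of the members than of all genes was called. The median log2 fold change of the members was 0.18 in TF-1, was 0.03 in UT-7 and was 0.06 in UCSD-AML1, beside medians of -0.00838, 0 and -0.00455 over all genes. The 4 libraries of each treatment did not overlap for 20 members on the higher side and 0 on the lower side in TF-1 (19.3% and 21% of all genes), for 15 and 3 in UT-7 (23.3% and 24.1%) and for 16 and 4 in UCSD-AML1 (21.1% and 23.1%).

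The excess of risers over fallers was smaller under some settings. Without cyclocreatine replicate 1, 20 members rose and 4 fell in TF-1, with a median of 0.09, against 27% and 29.3% of all genes. With libraries scaled by their totals alone in place of TMM (edgeR's trimmed-mean scaling), 20 rose and 5 fell in TF-1 (20.6% and 35.8% of all genes). In UT-7, 11 rose and 8 fell (19.3% and 26.9%) and the median turned to -0.00505, and in UCSD-AML1 16 rose and 5 fell (18.8% and 21.7%). Short transcripts had higher fold changes than long ones in TF-1 and UCSD-AML1: in TF-1 the median log2 fold change over all genes was 0.15 for transcripts of up to 1000 bases and -0.09 for those over 4000 bases. The members are short, with a median of 1015 bases (46 with a length) against 2884 bases over 13594 genes tested. With each library's trend on length removed, 20 members rose and 6 fell in TF-1 (27.8% and 29.9% of all genes). In UT-7, 13 rose and 9 fell (23.3% and 25%) with a median of -0.00122, and in UCSD-AML1 10 rose and 9 fell (20.2% and 22.4%), so that in UCSD-AML1 the share that rose was near that of all genes.

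**Figure D2:**
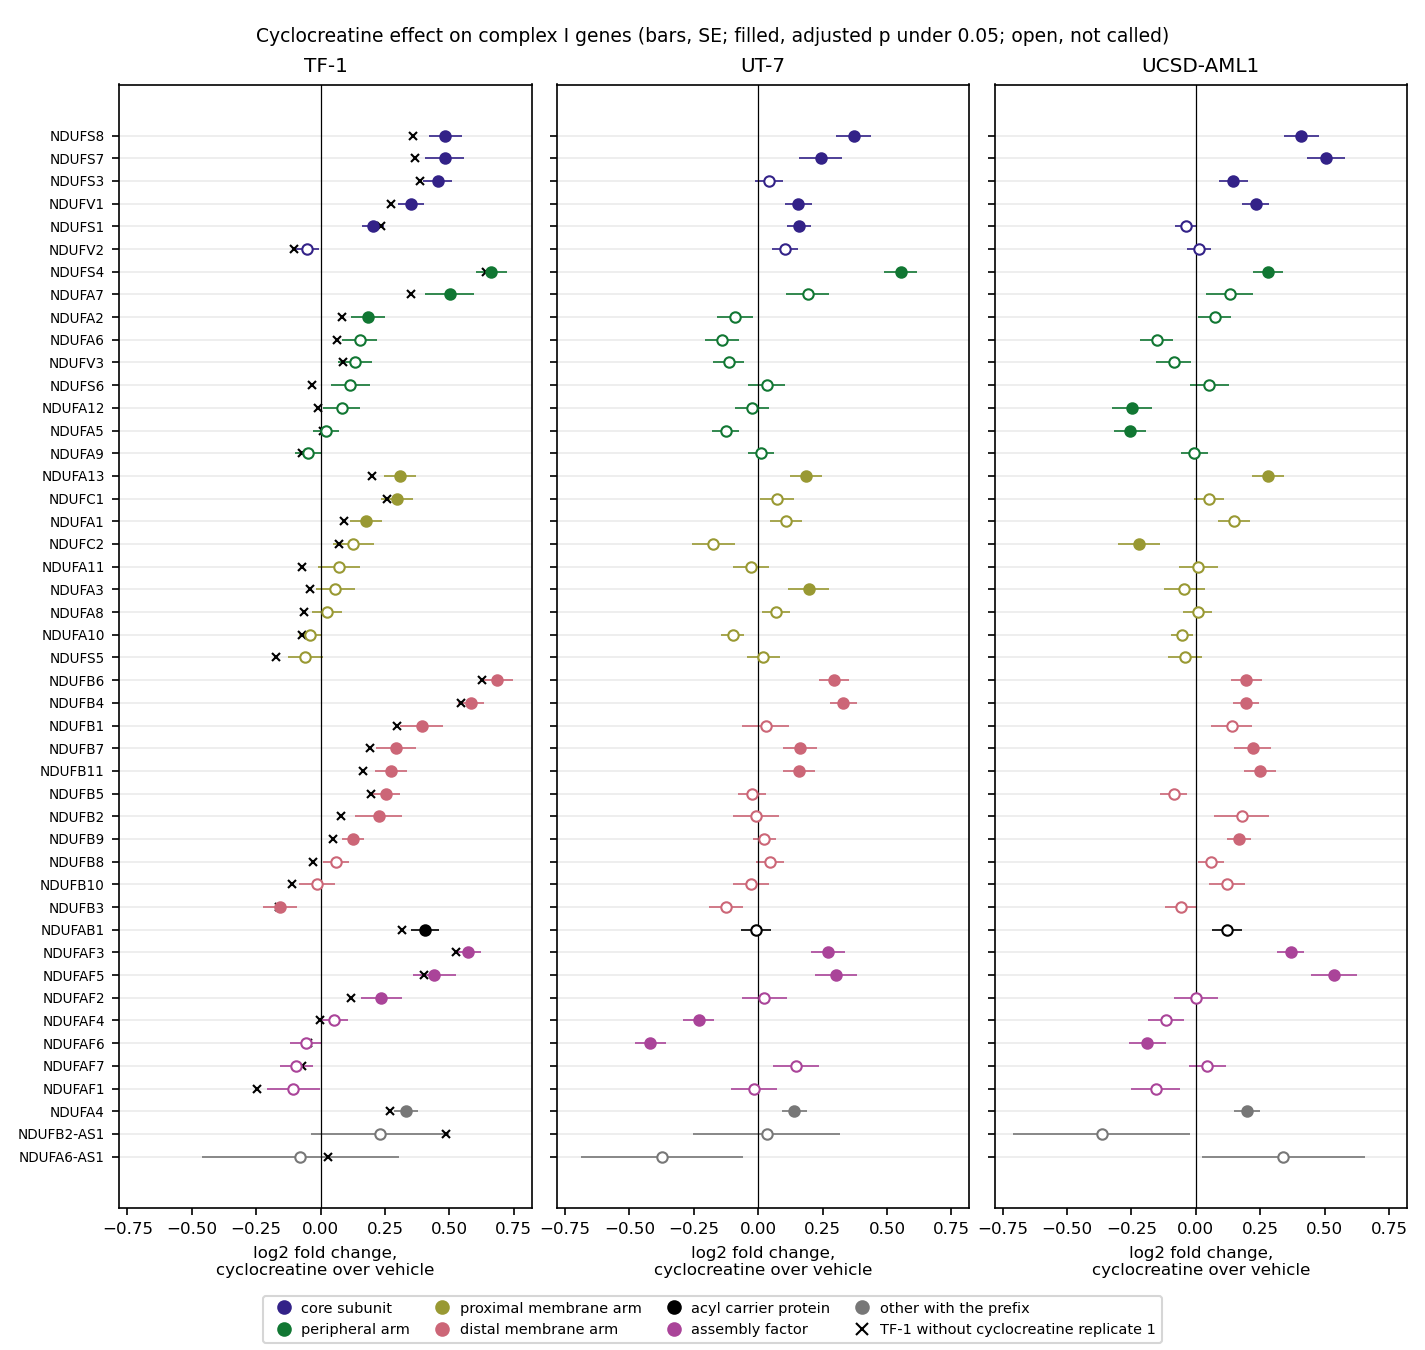
Log2 fold change of cyclocreatine over vehicle (horizontal axes) of 46 of the 47 genes in TF-1, UT-7 and UCSD-AML1, grouped by role; points carry their SE, filled points passed edgeR at an adjusted p under 0.05, and crosses in the TF-1 panel give the value without cyclocreatine replicate 1. The 24, 14 and 14 filled points right of 0 outnumber the 1, 2 and 4 left of it, and most crosses lie left of their points.

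The members spread more than their errors. The SD of the log2 fold change over the 47 members was 0.22 in TF-1, 0.18 for UT-7 and 0.20 for UCSD-AML1, and the median SE of a member was 0.06 in each. The same members tended to stand high in each line: over the 47 members, Pearson's r of the fold changes was 0.71 between TF-1 and UT-7, 0.59 between TF-1 and UCSD-AML1 and 0.58 between UT-7 and UCSD-AML1, where all 14588 genes gave 0.41, 0.31 and 0.31. These are descriptions across genes, which share libraries, scaling and transcript length and are not independent replicates. All genes tested also include genes with low counts, so the 2 sets of r may differ in precision. Genes of like count were not compared, and r without cyclocreatine replicate 1 of TF-1 was not computed. In all 3 lines, 13 members rose, among them the core subunits NDUFV1, NDUFS7 and NDUFS8, the peripheral-arm subunit NDUFS4, the membrane-arm subunits NDUFA13, NDUFB4, NDUFB6, NDUFB7 and NDUFB11, the assembly factors NDUFAF3 and NDUFAF5, and NDUFA4. Over all genes 8.76% rose in all 3 lines. None of the 47 fell in all 3 (8.97% of all genes), none rose in a line and fell in another, and 15 were called in no line. The same 13 rose in all lines without cyclocreatine replicate 1 of TF-1 (8.71% of all genes). With library totals alone 10 members did so, and likewise 10 with the length trend removed. Leaving out UT-7 vehicle replicate 4, or UT-7 cyclocreatine replicate 2 or 4, left 9 members. For these smaller counts the share of all genes was not computed.

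NDUFB6, a supernumerary subunit of the distal membrane arm, had the largest rise in TF-1 over all libraries, while without cyclocreatine replicate 1 that of NDUFS4 was larger (0.64 against 0.63 on the log2 scale). Its level there was 34.1, 37.4, 36.6 and 33.01 CPM in vehicle replicates 1 to 4 and 63.5, 53.7, 60.7 and 49.7 CPM in cyclocreatine replicates 1 to 4, so every treated library lay above every control. That is a 1.61-fold rise (log2 0.69 ± 0.06 SE, edgeR adjusted p = 2.24e-12; 0.63 without cyclocreatine replicate 1). In UT-7, which had more of it to begin with, it went from 56.5, 56.6, 55.02 and 57.6 CPM to 71.5, 70.3, 64.5 and 70.3 CPM, a 1.23-fold rise (log2 0.29 ± 0.06, edgeR adjusted p = 5.62e-05). In UCSD-AML1 it went from 45.2, 41.99, 44.1 and 44.9 CPM to 50.4, 49.4, 51.4 and 50.8 CPM, a 1.15-fold rise (log2 0.20 ± 0.06, edgeR adjusted p = 0.00735). The groups did not overlap in any line, and after cyclocreatine the TF-1 mean of 56.9 ± 6.32 CPM (SD, n = 4) was near the UT-7 vehicle mean of 56.4 ± 1.05 CPM. Because NDUFB6 has the largest TF-1 value over all libraries, the DNA just before its start site is shown, 225 bases at chr9:32573185-32573409 on the minus strand of GRCh38.p14, which end 26 bases before the RefSeq start and lie in no annotated exon. None of the 5 motifs searched below was found in its window, so no letters are in capitals.
NDUFB6 upstream: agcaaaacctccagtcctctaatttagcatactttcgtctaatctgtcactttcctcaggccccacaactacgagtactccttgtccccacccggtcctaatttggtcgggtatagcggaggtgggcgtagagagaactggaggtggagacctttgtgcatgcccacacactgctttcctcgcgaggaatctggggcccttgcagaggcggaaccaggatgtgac

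Most core subunits rose. Of the 7 nuclear core genes, 6 rose in TF-1 and 5 each in UT-7 and UCSD-AML1, and none fell. The risers made up 85.7%, 71.4% and 71.4%, beside 26.7%, 22.5% and 19.1% of all genes, while 29.3%, 23.3% and 21.3% of all genes fell. These are small counts. The median log2 fold changes of the core genes were 0.40, 0.16 and 0.15. Without cyclocreatine replicate 1, 6 rose and NDUFV2 fell in TF-1 (27% and 29.3% of all genes), with a median of 0.36. NDUFS8, which holds iron-sulfur clusters near the ubiquinone site, was at 89.6, 90.2, 90.7 and 87.9 CPM in the TF-1 vehicle libraries and 157, 111, 119 and 114 CPM in the cyclocreatine libraries, where replicate 1 was far the highest. Its log2 fold change was 0.48 ± 0.07 in TF-1 (0.36 without that library), 0.37 ± 0.07 in UT-7 and 0.41 ± 0.07 in UCSD-AML1, with edgeR adjusted p-values of 1.54e-07, 3.71e-05 and 9.62e-06. In UT-7 it moved from 69.4–75.6 to 87.7–98.03 CPM and in UCSD-AML1 from 69.5–72.8 to 91.6–98.2 CPM, both without overlap. Its effect was not found to differ between lines, with differences of 0.11 ± 0.10 (TF-1 less UT-7), 0.08 ± 0.09 (TF-1 less UCSD-AML1) and -0.04 ± 0.10 (UT-7 less UCSD-AML1).

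NDUFS7, the subunit with the last iron-sulfur cluster before ubiquinone, was at 46.96, 43.1, 48.1 and 48.4 CPM and then 80.2, 55.99, 64.6 and 60.01 CPM in TF-1, and at 50.2, 49.1, 51.1 and 46.8 CPM and then 68.9, 73.9, 66.8 and 70.6 CPM in UCSD-AML1. It rose 1.396-fold in TF-1 (edgeR adjusted p = 1.15e-06), or 1.29-fold without cyclocreatine replicate 1. In UCSD-AML1 it rose 1.42-fold (edgeR adjusted p = 9.48e-07). In UT-7 the rise was 1.18-fold (edgeR adjusted p = 0.0159), but cyclocreatine replicate 3, at 31.4 CPM, lay among the vehicle libraries of 30.6–32.4 CPM, and the call was lost without cyclocreatine replicate 2 (log2 0.22) or 4 (0.20).

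NDUFV1 is the flavin subunit where NADH is oxidised. It rose by a log2 of 0.35 ± 0.05 in TF-1, from 211–229 to 251–322 CPM (0.27 without cyclocreatine replicate 1). The rise was 0.16 ± 0.05 in UT-7 and 0.23 ± 0.05 in UCSD-AML1. The UT-7 call, at an edgeR adjusted p of 0.0134, was lost without vehicle replicate 4 (log2 0.13) or cyclocreatine replicate 4 (0.14). NDUFS3, a subunit of the module that binds ubiquinone, rose in TF-1 by a log2 of 0.45 ± 0.06 (edgeR adjusted p = 7.08e-09), or 0.39 without cyclocreatine replicate 1. It rose less in UCSD-AML1 (0.15 ± 0.06, edgeR adjusted p = 0.0321), where the groups overlapped. Leaving out vehicle replicate 1 or 3 or cyclocreatine replicate 2 or 3 of UCSD-AML1 ended the call (0.11 to 0.15), as did the length correction (0.07). Its value in UT-7 was 0.04 ± 0.05, and it did not pass the test there. NDUFS1, the largest core subunit of the peripheral arm with several iron-sulfur clusters, rose by 0.20 ± 0.04 in TF-1 and 0.16 ± 0.04 in UT-7, and its value in UCSD-AML1 was -0.04 ± 0.04.

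NDUFV2, the iron-sulfur partner of NDUFV1 in the NADH module, was the core gene that was called in no line. It was at 91.4, 101, 96.2 and 98.2 CPM in TF-1 under vehicle and 103, 90.03, 97.02 and 83.9 CPM under cyclocreatine, at 85.1–89.1 and 91.5–99.4 CPM in UT-7 and at 112–114 and 111–120.3 CPM in UCSD-AML1. The log2 fold changes were -0.05 ± 0.05, 0.10 ± 0.05 and 0.01 ± 0.05, with edgeR adjusted p-values of 0.368, 0.0798 and 0.889. Without cyclocreatine replicate 1 it fell in TF-1 (log2 -0.10, edgeR adjusted p = 0.0394), as it did with library totals alone (-0.13) and with the length trend removed (-0.18). In UT-7 its groups did not overlap, and with that line fitted alone it was called higher (0.11, edgeR adjusted p = 0.0112). The 2 subunits of the flavin module thus had different values in the same TF-1 libraries, 0.35 and -0.05, and the difference between the genes was not tested.

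Of the 9 supernumerary subunits of the peripheral arm, 3 rose in TF-1 and 1 each in UT-7 and UCSD-AML1, and 2 fell in the last. The risers made up 33.3%, 11.1% and 11.1%, beside 26.7%, 22.5% and 19.1% of all genes. In UCSD-AML1 22.2% fell, beside 21.3% of all genes, and none fell in TF-1 or UT-7 (29.3% and 23.3%). Without cyclocreatine replicate 1, 2 rose (22.2%) and 0 fell in TF-1, beside 27% and 29.3% of all genes. Nothing is read from these small counts. NDUFS4, a small subunit at the joint of the NADH and ubiquinone modules that is often mutated in inherited complex I deficiency, was the exception that rose in every line. It was at 27.9, 32.9, 33.4 and 28.6 CPM and then 51.1, 49.1, 43.5 and 50.5 CPM in TF-1, at 29.5, 27.2, 29.4 and 28.1 CPM and then 43.8, 43.5, 40.4 and 40.2 CPM in UT-7, and at 45.4, 44.99, 45.4 and 44.8 CPM and then 57.03, 52.02, 57.3 and 53.2 CPM in UCSD-AML1. No treated library overlapped a control. The rises were 1.58-fold (log2 0.66 ± 0.06), 1.47-fold (0.55 ± 0.06) and 1.22-fold (0.28 ± 0.06), with edgeR adjusted p-values of 8.93e-12, 3.38e-09 and 0.000158. NDUFS4 had the largest effect of all members in UT-7, and in TF-1 it was 0.64 without cyclocreatine replicate 1.

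In the same arm, NDUFA7 rose in TF-1 (log2 0.50 ± 0.09, edgeR adjusted p = 2.83e-05) from 18.02, 19.1, 17.8 and 16.7 CPM to 32.8, 26.2, 21.2 and 21.2 CPM, with replicate 1 the highest again (0.35 without it). NDUFA2 was called in TF-1 at 0.18 ± 0.07 and lost its call without that library (0.08, edgeR adjusted p = 0.224). NDUFA5 and NDUFA12, subunits on the outside of the peripheral arm, fell in UCSD-AML1. NDUFA5 was at 35.8, 35.9, 39.5 and 34.04 CPM under vehicle and 28.1, 30.4, 30.2 and 32.8 CPM under cyclocreatine, without overlap (log2 -0.26 ± 0.06, edgeR adjusted p = 0.000944). NDUFA12 was at 41.2, 40.6, 36.6 and 38.1 and then 30.4, 36.3, 35.3 and 29.9 CPM, also without overlap (log2 -0.25 ± 0.08, edgeR adjusted p = 0.00866). Their values in TF-1 were 0.02 and 0.08, neither called. NDUFA5 was at -0.13 ± 0.05 in UT-7 and just missed the threshold (edgeR adjusted p = 0.0513), while library totals alone, no filter on low counts, the length correction, limma-voom, DESeq2 and a fit of UT-7 alone each called it lower there (-0.16 to -0.12). NDUFA6, NDUFA9, NDUFS6 and NDUFV3 were called in no line and ran from -0.15 to 0.15.

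**Figure D3:**
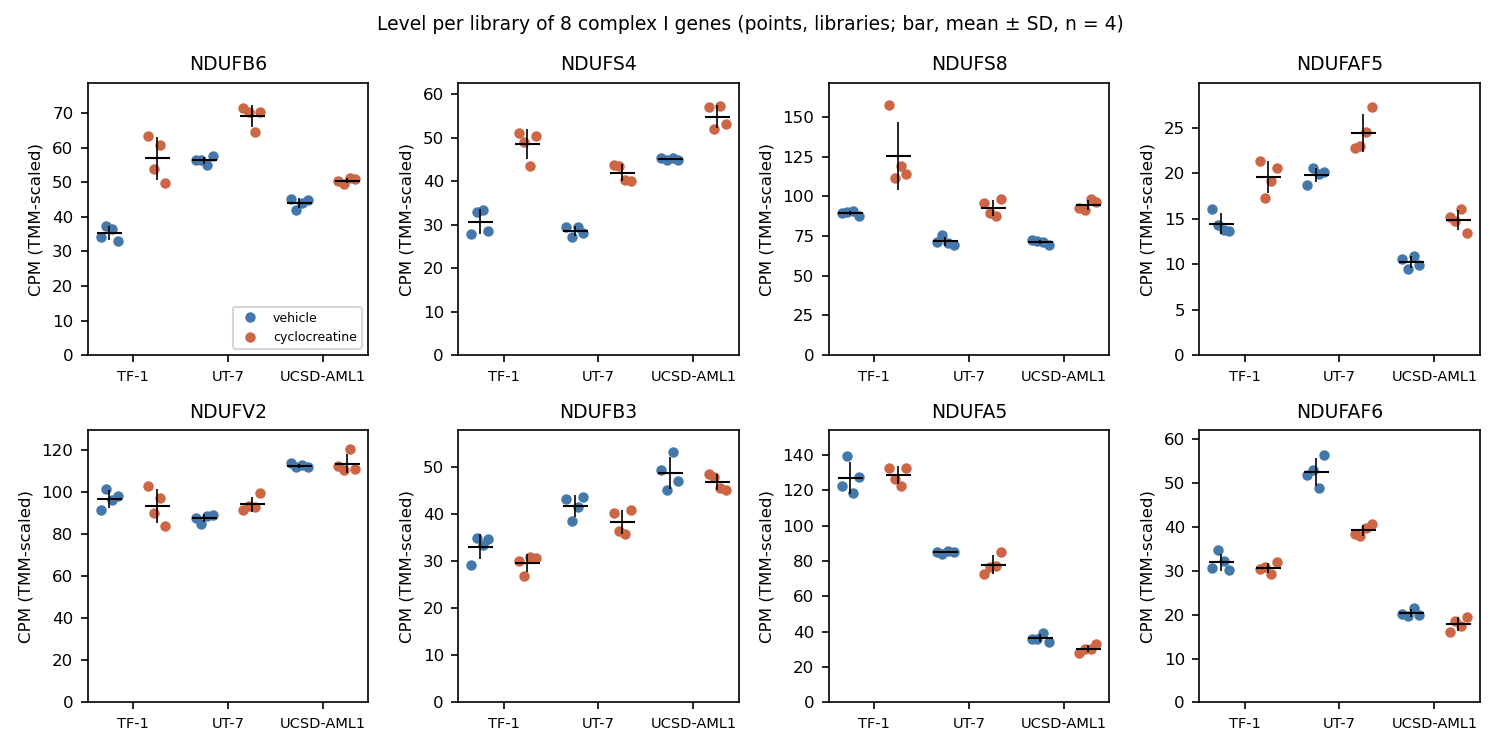
TMM-scaled CPM (vertical axes) of 8 complex I genes in every library of the 3 lines, blue for vehicle and orange for cyclocreatine; horizontal bars are group means and vertical bars SD, n = 4. NDUFB6, NDUFS4, NDUFS8 and NDUFAF5 (top row) show treated points above vehicle points in each line, while NDUFV2, NDUFB3, NDUFA5 and NDUFAF6 (bottom row) overlap in at least 1 line.

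Of the 9 supernumerary subunits of the proximal membrane arm, next to the peripheral arm, 3 rose in TF-1 and 2 in UT-7, while in UCSD-AML1 1 rose and 1 fell. The risers made up 33.3%, 22.2% and 11.1%, beside 26.7%, 22.5% and 19.1% of all genes. In UCSD-AML1 11.1% fell, beside 21.3% of all genes, and none fell in TF-1 or UT-7 (29.3% and 23.3%). Without cyclocreatine replicate 1, 2 rose (22.2%) and 1 fell (11.1%) in TF-1, beside 27% and 29.3% of all genes. Nothing is read from these small counts. NDUFA13, also known as a regulator of cell death, rose in each line, from 172–182 to 202–268 CPM in TF-1 (log2 0.31 ± 0.06), from 125–138 to 143–159.8 CPM in UT-7 (0.19 ± 0.06) and from 112–125 to 139–149 CPM in UCSD-AML1 (0.28 ± 0.06). The groups did not overlap in any of them, and the edgeR adjusted p-values were 7.64e-05, 0.0166 and 0.000609. Without cyclocreatine replicate 1 the TF-1 value of NDUFA13 was 0.20. NDUFC1 rose in TF-1 (0.30 ± 0.06), as did NDUFA1 (0.18 ± 0.06), whose call was lost without cyclocreatine replicate 1 (0.09, edgeR adjusted p = 0.13). NDUFA3 was called in UT-7 (0.20 ± 0.08, edgeR adjusted p = 0.0421). NDUFC2 fell in UCSD-AML1 (log2 -0.22 ± 0.08, edgeR adjusted p = 0.0282), where its groups overlapped at 21.7–26.1 and 19.5–21.9 CPM, and leaving out vehicle replicate 1, 2 or 3 or cyclocreatine replicate 1 or 4 ended the call (-0.22 to -0.18). NDUFS5, a subunit on the intermembrane side, was not called in the full set of libraries, and without cyclocreatine replicate 1 it fell in TF-1 (-0.17, edgeR adjusted p = 0.000886): its 4 treated libraries were at 118, 89.4, 92.2 and 84.9 CPM and its vehicle libraries at 97.8, 104, 101 and 97.1 CPM. In UT-7 NDUFC2 was not called in the reported fit. It was called lower there with library totals alone (-0.21), with UT-7 fitted alone (-0.17) and without UT-7 cyclocreatine replicate 2 (-0.22). NDUFA8, NDUFA10 and NDUFA11 were called in no line, but NDUFA11 was lower in UT-7 with the length trend removed (-0.17, edgeR adjusted p = 0.00177).

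In the distal membrane arm, whose supernumerary subunits carry the NDUFB symbols, 8 of 11 rose and 1 fell in TF-1, 4 rose in UT-7 and 5 rose in UCSD-AML1. The risers made up 72.7%, 36.4% and 45.5%, beside 26.7%, 22.5% and 19.1% of all genes. In TF-1 9.09% fell, beside 29.3% of all genes, and none fell in UT-7 or UCSD-AML1 (23.3% and 21.3%). Without cyclocreatine replicate 1, 6 rose (54.5%) and 1 fell (9.09%) in TF-1, beside 27% and 29.3% of all genes. The median log2 fold change of the arm in TF-1 was 0.256 with that library and 0.165 without it. These are small counts. Besides NDUFB6, the subunits NDUFB4, NDUFB7 and NDUFB11 rose in each line. NDUFB4 was at 56.3, 63.6, 58.6 and 54.3 CPM and then 94.2, 84.7, 88.9 and 81.3 CPM in TF-1, and it went from 68.4–70.8 to 81.8–93.02 CPM in UT-7 and from 64.8–71.6 to 75.9–78.1 CPM in UCSD-AML1, with no overlap in any line. Its rises were 1.5-fold (log2 0.58 ± 0.05), 1.26-fold (0.33 ± 0.05) and 1.14-fold (0.19 ± 0.05), at edgeR adjusted p-values of 1.85e-12, 1.06e-06 and 0.00196. In GENCODE v29, 12 pseudogenes are named after NDUFB4, as are 12 after NDUFA5, and at least 1 after each of 19 members, so reads of these genes could have been split or lost in counting. NDUFB7 rose by 0.29 ± 0.08, 0.16 ± 0.07 and 0.22 ± 0.07 in TF-1, UT-7 and UCSD-AML1, with overlapping groups in TF-1 and UT-7. Its UT-7 call, at an edgeR adjusted p of 0.0451, was lost without any of vehicle replicates 1, 2 and 4 and cyclocreatine replicates 1, 2 and 4 (0.11 to 0.17), and with library totals alone, no filter on low counts or DESeq2 (0.12 to 0.15). NDUFB11 rose by 0.27 ± 0.06, 0.16 ± 0.06 and 0.25 ± 0.06, and its groups overlapped in UT-7. Without cyclocreatine replicate 1 the TF-1 values of NDUFB4, NDUFB7 and NDUFB11 were 0.55, 0.19 and 0.16, each still called. With the length trend removed, NDUFB7 was called in no line (0.12, 0.02 and 0.10), and the UCSD-AML1 calls of NDUFB4 (0.09) and NDUFB9 (0.07) ended.

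Single libraries and scaling decided several smaller calls in this arm. NDUFB9, which had the highest level per kilobase in TF-1, was at 279.7, 298, 275 and 269.8 CPM under vehicle and 354, 286, 293 and 292 CPM under cyclocreatine, with replicate 1 the highest and the groups overlapping. It was called higher (log2 0.13 ± 0.04, edgeR adjusted p = 0.0148), but it was 0.05 and not called without cyclocreatine replicate 1, 0.11 without vehicle replicate 4, 0.04 with library totals alone, 0.13 with TF-1 fitted alone (edgeR adjusted p = 0.0849) and -0.02 with the length trend removed, each time not called. In UCSD-AML1 it rose from 116–120.5 to 128–138 CPM without overlap (0.17 ± 0.05, edgeR adjusted p = 0.00398). NDUFB2 was called in TF-1 at 0.23 ± 0.09, and not without cyclocreatine replicate 1 (0.08) or vehicle replicate 3 (0.21) or 4 (0.17), nor with library totals alone, no filter on low counts, the length correction, DESeq2 or TF-1 fitted alone (0.11 to 0.23). NDUFB1 and NDUFB5 rose in TF-1 (0.39 ± 0.08 and 0.26 ± 0.05) and kept their calls without that library (0.30 and 0.20). NDUFB3 was the only member called lower in TF-1 in the reported fit (log2 -0.16 ± 0.07, edgeR adjusted p = 0.044). Its vehicle libraries were at 29.1, 34.8, 33.4 and 34.7 CPM and its treated libraries at 30.1, 26.9, 30.8 and 30.6 CPM, which overlap, and the call ended without vehicle replicate 2, 3 or 4 or cyclocreatine replicate 2 (-0.15 to -0.11), and with no filter on low counts, limma-voom or TF-1 fitted alone (-0.16 to -0.15). With the length trend removed, NDUFB3 was also called lower in UT-7 (-0.26, edgeR adjusted p = 0.000831) and in UCSD-AML1 (-0.18, edgeR adjusted p = 0.0152). Library totals alone likewise called it lower in UT-7 (-0.16, edgeR adjusted p = 0.0389). NDUFB8 and NDUFB10 were called in no line.

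NDUFAB1, the mitochondrial acyl carrier protein that serves both fatty acid synthesis and complex I, rose in TF-1 and was called in no other line in the joint fit. It was at 90.98, 101, 93.2 and 92.7 CPM under vehicle and 148, 119, 118 and 115 CPM under cyclocreatine in TF-1 (log2 0.40 ± 0.06, edgeR adjusted p = 9.15e-08; 0.32 without replicate 1). The same gene was at 93.2–95.6 and 89.1–96.6 CPM in UT-7 (-0.01 ± 0.06), where the groups overlapped. In UCSD-AML1 it was at 77.5–88.6 and 89.1–95.97 CPM without overlap (0.12 ± 0.06, edgeR adjusted p = 0.09), and it was called higher with that line fitted alone (0.13, edgeR adjusted p = 0.00335). NDUFA4, the complex IV subunit with the prefix, rose in each line (0.33 ± 0.05, 0.14 ± 0.05 and 0.20 ± 0.05). The antisense symbols NDUFB2-AS1 and NDUFA6-AS1 had as few as 7 and 5 counts in a library and SEs of 0.27 to 0.38, so a change of the size seen in most other members was not detectable at this depth.

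Assembly factors were called in both directions. Of the 7 with the prefix, 3 rose in TF-1, 2 rose and 2 fell in UT-7, and 2 rose and 1 fell in UCSD-AML1, beside 26.7% and 29.3%, 22.5% and 23.3%, and 19.1% and 21.3% of all genes. Without cyclocreatine replicate 1, 2 rose and 1 fell in TF-1, beside 27% and 29.3% of all genes. These are small counts near the shares of all genes in UT-7, and nothing is read from them. NDUFAF5, an enzyme that hydroxylates an arginine of NDUFS7, rose in each line. Its TF-1 libraries were at 16.1, 14.4, 13.8 and 13.7 CPM and then 21.3, 17.3, 19.1 and 20.6 CPM, its UT-7 libraries at 18.7, 20.6, 19.9 and 20.1 CPM and then 22.8, 23.1, 24.5 and 27.4 CPM, and its UCSD-AML1 libraries at 10.6, 9.51, 10.9 and 9.97 CPM and then 15.2, 14.7, 16.1 and 13.4 CPM, with no overlap. The rises were 1.36-fold (log2 0.44 ± 0.08), 1.23-fold (0.30 ± 0.08) and 1.45-fold (0.54 ± 0.09), and the last was the largest of any member in UCSD-AML1 (edgeR adjusted p = 7.51e-06).

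NDUFAF3 and NDUFAF4 act together on the early module that will bind ubiquinone, and their transcripts were called in opposite directions in UT-7. NDUFAF3 rose in TF-1 from 51.3, 47.1, 51.5 and 44.5 CPM to 78.99, 70.2, 72.3 and 67.5 CPM (log2 0.57 ± 0.05, edgeR adjusted p = 1.3e-11), and by 0.27 ± 0.07 in UT-7 and 0.37 ± 0.05 in UCSD-AML1. NDUFAF4 fell in UT-7, from 46.2, 48.7, 47.02 and 42.9 CPM to 38.6, 41.6, 38.8 and 38.7 CPM without overlap (log2 -0.23 ± 0.06, edgeR adjusted p = 0.0015), and its values in TF-1 (0.05) and UCSD-AML1 (-0.12) did not pass the test. The difference between the genes was not tested.

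NDUFAF6, a factor of early assembly, fell most. In UT-7 it went from 51.8, 52.9, 48.8 and 56.5 CPM to 38.4, 37.9, 39.8 and 40.7 CPM, a 1.34-fold fall (log2 -0.42 ± 0.06, edgeR adjusted p = 3.1e-07). In UCSD-AML1 it went from 20.2, 19.6, 21.6 and 19.9 CPM to 15.9, 18.5, 17.5 and 19.4 CPM, a narrow gap without overlap (log2 -0.19 ± 0.07, edgeR adjusted p = 0.0324). That call ended without vehicle replicate 1 or 3, without cyclocreatine replicate 1 or 3, and with no filter on low counts (-0.19 to -0.14). In TF-1 the libraries overlapped, at 30.2–34.6 and 29.2–32 CPM. NDUFAF2, a late factor related to NDUFA12, was called higher in TF-1 (0.24 ± 0.08) and not without cyclocreatine replicate 1 (0.12, edgeR adjusted p = 0.148). NDUFAF1, of the assembly complex for the membrane arm, was not called, with TF-1 values of 16.9, 18.3, 17.04 and 15.7 and then 20.3, 10.97, 16.1 and 15.5 CPM, and without cyclocreatine replicate 1 it fell (-0.25, edgeR adjusted p = 0.0187). NDUFAF7, a methyltransferase that acts during assembly, was called in no line (-0.09, 0.15 and 0.05), except as lower in TF-1 with library totals alone (-0.17).

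Assembly factors without the prefix were also called in both directions. Of 11 on the list, 4 rose and 3 fell in TF-1, 2 rose and 3 fell in UT-7, and 3 rose and 3 fell in UCSD-AML1. Beside the same shares of all genes (26.7% and 29.3%, 22.5% and 23.3%, 19.1% and 21.3%), these small counts are mostly near the background. ECSIT, a partner of NDUFAF1, rose in each line (log2 0.50 ± 0.07, 0.20 ± 0.06 and 0.52 ± 0.08), as did ATP5SL, now named DMAC2 for its place in distal membrane arm assembly (0.45 ± 0.05, 0.34 ± 0.05 and 0.30 ± 0.05). NUBPL, which delivers iron-sulfur clusters to complex I, fell in each line. It went from 5.303–7.25 to 3.21–4.24 CPM in TF-1, from 10.01–11.7 to 6.34–9.79 CPM in UT-7 and from 15.1–16.95 to 9.5–12.2 CPM in UCSD-AML1, with no overlap (log2 -0.75 ± 0.14, -0.44 ± 0.12 and -0.60 ± 0.11; edgeR adjusted p = 2.59e-05, 0.00259 and 1.6e-05). TIMMDC1, a membrane-arm factor, and TMEM261, now named DMAC1, also fell in each line. The log2 fold changes of TIMMDC1 were -0.27 ± 0.06, -0.37 ± 0.07 and -0.41 ± 0.06, and those of TMEM261 -0.31 ± 0.08, -0.49 ± 0.09 and -0.24 ± 0.07. In TF-1 the treated and vehicle libraries of both overlapped, and without cyclocreatine replicate 1 the values were -0.37 and -0.41. C17orf89, the older symbol of NDUFAF8, fell in TF-1 (-0.22 ± 0.09, edgeR adjusted p = 0.0276).

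Among 9 regulators of nuclear respiratory genes, 8 were tested, and PPARGC1A, with at most 3 counts in a library, was not. In TF-1, 5 rose and 2 fell, in UT-7 3 rose and 2 fell, and in UCSD-AML1 1 rose and 2 fell, where 26.7% and 29.3%, 22.5% and 23.3%, and 19.1% and 21.3% of all genes did. The number that fell in each line and the number that rose in UCSD-AML1 are near those shares. Without cyclocreatine replicate 1, NRF1 (log2 0.16, edgeR adjusted p = 0.0507) and PPARGC1B (-0.11, edgeR adjusted p = 0.174) lost their TF-1 calls. ESRRA, a nuclear receptor of mitochondrial genes, fell in each line (log2 -0.22 ± 0.05, -0.65 ± 0.06 and -0.26 ± 0.05). GABPA, the DNA-binding subunit of the factor also called NRF2, rose in TF-1 (0.37 ± 0.05) and UT-7 (0.43 ± 0.05) and fell in UCSD-AML1 (-0.18 ± 0.05). TFAM, which packages and transcribes mitochondrial DNA, rose in TF-1 (0.43 ± 0.06, edgeR adjusted p = 9.53e-08), and its values in UT-7 and UCSD-AML1 were -0.11 and -0.03. YY1 and NRF1, the factors whose motifs are searched below, had values of 0.09 ± 0.04 and 0.21 ± 0.07 in TF-1, 0.17 ± 0.04 and 0.10 ± 0.07 in UT-7 and 0.09 ± 0.04 and 0.18 ± 0.08 in UCSD-AML1, with edgeR adjusted p-values of 0.0301, 0.0136, 0.000128, 0.266, 0.0568 and 0.06 in that order.

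**Figure D4:**
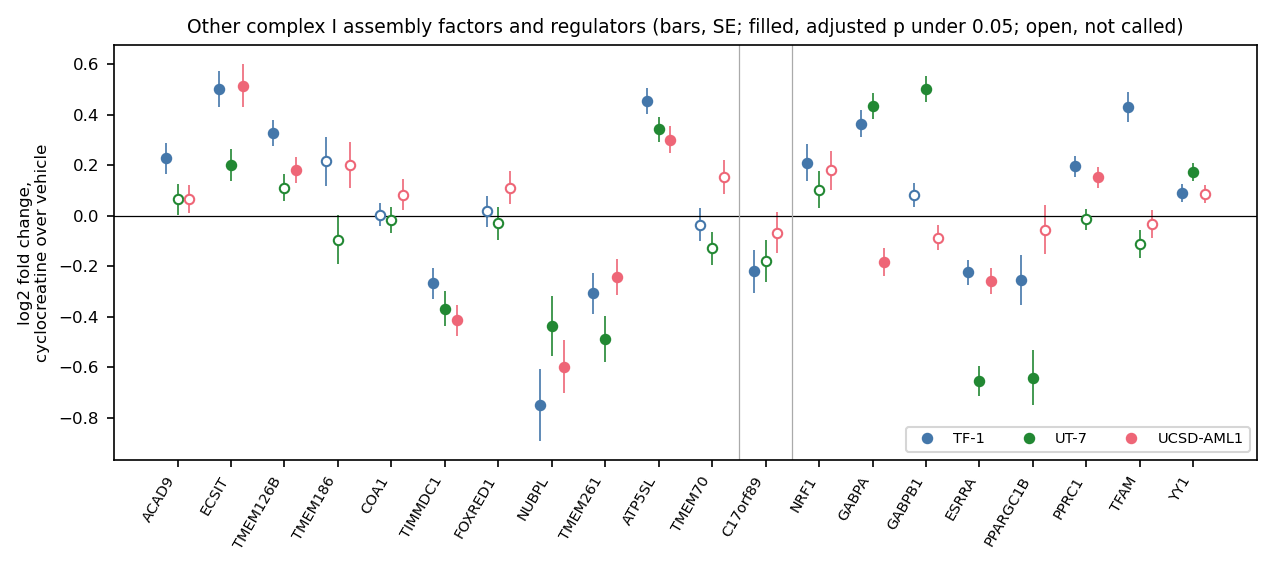
Log2 fold change of cyclocreatine over vehicle (vertical axis) with SE for 11 assembly factors without the prefix (left), NDUFAF8 under its older symbol C17orf89 (middle) and 8 regulators (right) in TF-1, UT-7 and UCSD-AML1; filled points passed edgeR at an adjusted p under 0.05. NUBPL, TIMMDC1 and TMEM261 lie below 0 and ECSIT and ATP5SL above it in all 3 lines.

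The size of the effect differed between lines for part of the members, mostly as a larger rise in TF-1. This excess was smaller without cyclocreatine replicate 1 of TF-1. Between TF-1 and UT-7 the effect differed for 15 members, all higher in TF-1 (14.3% of all genes were higher and 13.2% lower, 27.5% in all), and between TF-1 and UCSD-AML1 for 15, also all higher in TF-1 (14.8% and 14.3%, 29.1% in all). Without cyclocreatine replicate 1, 9 members were higher than in UT-7 (19.1%) and 2 lower (4.26%), beside 15.1% and 13.8% of all genes. In the comparison with UCSD-AML1 13 were higher (27.7%) and 2 lower (4.26%), beside 17.2% and 15.9%. The median difference of the members went from 0.14 to 0.09 for UT-7, beside -0.00468 over all genes without that library. For UCSD-AML1 it went from 0.11 to 0.0112, near the 0.0107 of all genes. Both comparisons use the same TF-1 libraries. Between UT-7 and UCSD-AML1, 2 members differed (11.5% of all genes were higher and 11.5% lower in UT-7, 23% in all): NDUFS4, with a difference of 0.27 ± 0.09 on the log2 scale (edgeR adjusted p = 0.0191), and NDUFS1 (0.20 ± 0.06, edgeR adjusted p = 0.0185), whose call ended without UT-7 vehicle replicate 3, UT-7 cyclocreatine replicate 3 or UCSD-AML1 vehicle replicate 3 (0.17), with library totals alone (0.16) and with the length trend removed (0.10). With library totals alone that comparison had 1 member higher and 3 lower, and with the length trend removed 4 higher and 1 lower. The shares of all genes under these 2 settings were not computed for differences between lines, so nothing is read from these counts.

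NDUFB6 stood out in both comparisons with TF-1. Its effect was larger there than in UT-7 by 0.39 ± 0.08 on the log2 scale (edgeR adjusted p = 0.000437; 0.33 without replicate 1) and than in UCSD-AML1 by 0.49 ± 0.08 (edgeR adjusted p = 2.21e-05; 0.43). NDUFS3 and NDUFAB1 had the largest differences from UT-7, 0.41 ± 0.08 and 0.41 ± 0.08, with 0.34 and 0.32 without that library, where NDUFAF6 came first (0.37, edgeR adjusted p = 0.000675). NDUFB4 and NDUFS4 followed NDUFB6 in the comparison with UCSD-AML1, at 0.39 ± 0.07 and 0.38 ± 0.08. By contrast, the effect on NDUFAF5 was not found to differ between any pair of lines, with differences between -0.23 and 0.14 and SEs of 0.12.

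Before treatment the lines already differed in most members, about as often as in all genes. Under vehicle, 40 of 47 members differed between TF-1 and UT-7 (17 higher, 36.2%, and 23 lower, 48.9%, in TF-1). Between TF-1 and UCSD-AML1 37 differed (17 higher, 36.2%, and 20 lower, 42.6%). Between UT-7 and UCSD-AML1 37 differed (24 higher, 51.1%, and 13 lower, 27.7%, in UT-7). Of all genes, 79.7% differed between the first pair (41% higher and 38.7% lower in TF-1), 84% between the second (40.6% and 43.3%) and 81.5% between the last (40% higher and 41.5% lower in UT-7). Baseline differences were often larger than any effect of cyclocreatine. NDUFAF7 was at 36.7 ± 1.07 CPM in TF-1, at 9.41 ± 0.271 CPM in UT-7 and at 17.6 ± 1.65 CPM in UCSD-AML1 (SD, n = 4), a 3.905-fold difference between the first pair. NDUFA11, which sits at the base of the membrane arm, was at 50.1 ± 1.67, 171 ± 4.99 and 81.2 ± 3.31 CPM, so UT-7 had 3.41-fold the level of TF-1. NDUFB7 had the same order, at 30.7 ± 3.16, 94.3 ± 8.099 and 48.3 ± 1.13 CPM.

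Other members were lowest in UCSD-AML1. NDUFA5 was at 127 ± 9.29 CPM in TF-1, at 84.99 ± 0.64 CPM in UT-7 and at 36.3 ± 2.27 CPM in UCSD-AML1, a 3.498-fold difference between the first and the last (log2 1.81 ± 0.06). NDUFAF4 (52.2, 46.2 and 19.2 CPM) and NDUFB9 (281, 212 and 118 CPM) had the same order, while NDUFB2 (32.5, 45.3 and 16.6 CPM) and NDUFAF6 (31.9, 52.5 and 20.3 CPM) were highest in UT-7. NDUFAF3 had its highest vehicle level in UCSD-AML1, at 71.9 ± 2.94 CPM against 22.1 ± 1.196 CPM in UT-7 (3.25-fold, log2 -1.70 ± 0.06 for UT-7 over UCSD-AML1). NDUFB10 and NDUFC2 were not found to differ between any pair of lines. Per kilobase of transcript, the scale on which genes can be compared, NDUFB9 was the highest member in TF-1 vehicle at 395 CPM per kilobase, and NDUFS5 in UT-7 (406) and UCSD-AML1 (204). NDUFAF5 was the lowest protein-coding member in each line, at 2.62, 3.59 and 1.85 CPM per kilobase.

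**Figure D5:**
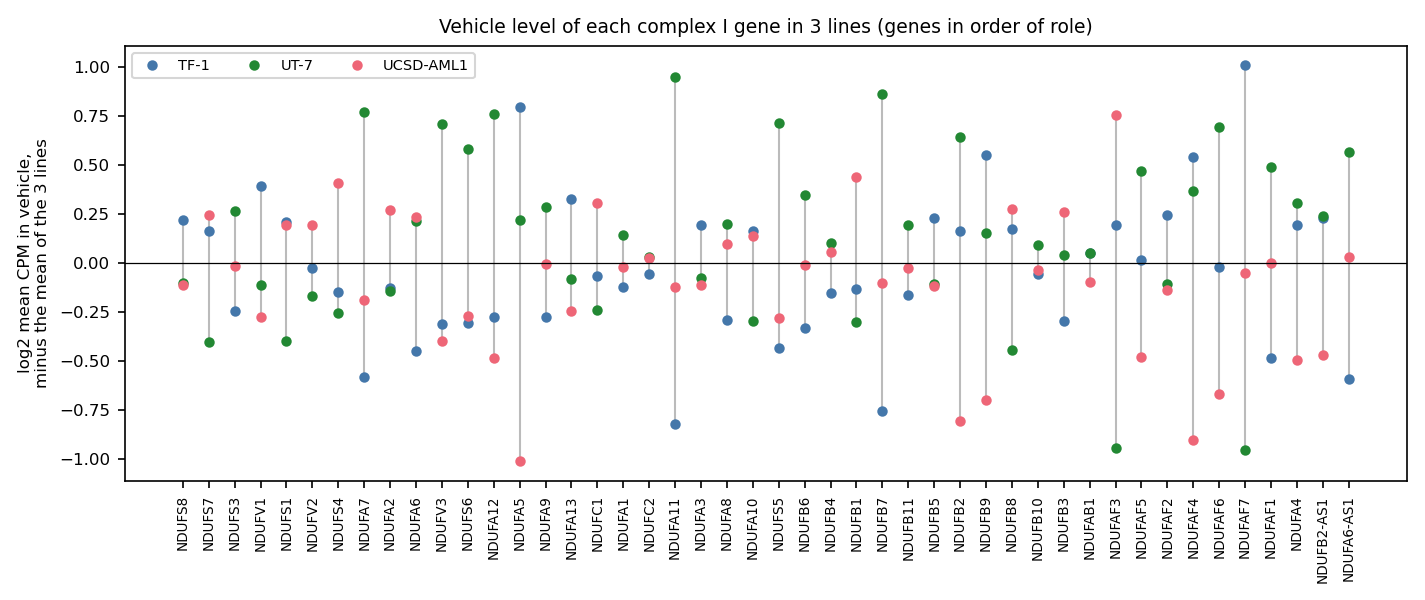
Log2 of the mean vehicle CPM of 46 of the 47 genes in TF-1, UT-7 and UCSD-AML1, minus the mean of the 3 lines (vertical axis), with genes in order of role. Grey lines span each gene's values, which lie far apart for NDUFA5, NDUFA11, NDUFAF3 and NDUFAF7 and close together for NDUFC2 and NDUFB10.

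Promoter windows were compared for motifs of factors known to act on respiratory genes. RefSeq promoters (250 bases before to 50 after the start, GRCh38.p14) were matched for 41 of 47 members, and both strands were searched for 5 strings. The NRF1 string GCGCATGCG was in 6 members (14.6%, against 2.34% of 27305 genes), the YY1 string AAGATGGCG in 7 (17.1% against 2.14%), the ETS string CCGGAAG, which GABPA can bind, in 6 (14.6% against 12.2%), CCAAT in 12 (29.3% against 39.7%) and the ESRRA string TCAAGGTCA in 0 (against 0.432%). A match is a description of letters and shows no binding. The 27305 genes are all those with a listed promoter, whatever their level in these cells, while the members passed a level rule. The shares among the genes tested were not computed. Because the NRF1 and YY1 strings had the highest ratio of the share in members to that in all promoters, windows of 30 bases around their matches are shown in the direction of transcription, with the match in capitals; where both strands match at overlapping letters, 1 of them is marked. The YY1 match of NDUFA6 also lies in the window of NDUFA6-AS1, which starts nearby on the other strand, and is shown once. By gene and strand, the NRF1 windows lie at chr7:123557957-123557986 (NDUFA5, minus), chr9:122159764-122159793 (NDUFA8, minus), chr20:13785014-13785043 (NDUFAF5, plus), chr3:120596167-120596196 (NDUFB4, plus), chr5:1801351-1801380 (NDUFS6, plus) and chr19:1383823-1383852 (NDUFS7, plus). The YY1 windows lie at chr22:42090728-42090757 (NDUFA6, minus), chr19:8321342-8321371 (NDUFA7, minus), chr12:4649114-4649143 (NDUFA9, plus), chr10:100529835-100529864 (NDUFB8, minus), chr5:53560650-53560679 (NDUFS4, plus) and chr19:1383914-1383943 (NDUFS7, plus).
NRF1 string, NDUFA5: tatgcccatcGCGCATGCGtcaatttttct
NRF1 string, NDUFA8: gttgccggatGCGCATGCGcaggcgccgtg
NRF1 string, NDUFAF5: agccgcgctgGCGCATGCGcacaaaaagcg
NRF1 string, NDUFB4: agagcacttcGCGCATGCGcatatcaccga
NRF1 string, NDUFS6: cagaagccgtGCGCATGCGttagcgctaag
NRF1 string, NDUFS7: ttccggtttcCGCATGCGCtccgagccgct
YY1 string, NDUFA6: atgctttggcAAGATGGCGgggagcggcgt
YY1 string, NDUFA7: tcgcggacggAAGATGGCGtccgccacccg
YY1 string, NDUFA9: attgtgggaaAAGATGGCGgctgccgcaca
YY1 string, NDUFB8: gaagaaggtgAAGATGGCGgtggccagggc
YY1 string, NDUFS4: tgcctgcagcAAGATGGCGgcggtgtcaat
YY1 string, NDUFS7: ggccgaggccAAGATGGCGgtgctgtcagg

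In the 6 subunit genes with the YY1 string the match began 11 to 26 bases after the start site, on the strand of the gene. Members with the same string differed in their calls. Of the 6 with the NRF1 string, NDUFAF5, NDUFB4 and NDUFS7 rose in all 3 lines, NDUFA5 fell in UCSD-AML1, and NDUFA8 and NDUFS6 were called in none. Of the 6 subunit genes with the YY1 string, NDUFS4 and NDUFS7 rose in all 3 lines, NDUFA7 rose in TF-1, and NDUFA6, NDUFA9 and NDUFB8 were called in none. NDUFB6 had none of the 5 strings in its window.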

How the data were processed

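The authors deposited, for each of the 24 libraries, a table of raw read counts per RefSeq gene symbol for the 3 cell lines. The submitters' processing notes name FastQC, TopHat2 and RSEM and the build hg19 (GRCh37), with no role; their versions and whether counting used strand are not given in the sources used. Values are whole numbers, and columns of other series were 0. Groups were taken from the labels (6 groups of 4). Members and gene lists were chosen with earlier results of these data known.

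The counts were fitted over all 24 libraries with edgeR 4.0.16 in R 4.3.3 (quasi-likelihood, robust, TMM factors 0.9142 to 1.043, filterByExpr with a smallest count of 10 and total of 15). The 14588 genes tested held at least 99.934% of each library's counts, and p-values were adjusted over all of them by Benjamini-Hochberg, with a threshold of 0.05. Library totals were 12794998 to 21200662, the median biological coefficient of variation was 0.0574, and replicate pairs differed beyond counting noise (a chi-square of 1.29 to 19.3 per degree of freedom in 36 pairs). CPM are TMM-scaled, except for the membership rule, which used library totals. Log2 fold changes carry edgeR's default prior count. A prior count of 2 entered only the log2 CPM behind the length trend and the check of replicate numbers. The SE is the absolute log2 fold change divided by the square root of F. Scripts were tested on simulated data.

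Alternatives were library totals alone, no filter, each library's trend on transcript length removed (GENCODE v29 lengths, 93.2% of genes tested), limma-voom (limma 3.58.1), DESeq2 1.42.0, each line fitted alone, replicate number as a block, and each library left out. Named by rule were the core subunits, NDUFB6, the 4 called members per direction with the largest change in each line, and the 3 with the largest difference between each pair of lines in effect and in vehicle level. Other members named with values were chosen by role or after their values were seen, and values of 1 member are not reported here.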

Additional observations from a re-analysis of the deposited data

Results flagged for a closer look

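The TF-1 cyclocreatine replicate 1 lay far from its 3 fellow libraries in 5 of the 9 groups of values in which a single library stood apart. Of 144 groups of 4 libraries examined, chance alone would give about 1 in 20. In that library the 47 complex I genes took 0.3918% of counts, against 0.3328 to 0.3378% in the others. Its level was 112.3 CPM for NDUFS3 against 92.8 to 95.06 and 157.3 CPM for NDUFS8 against 111.5 to 119.1. For NDUFAB1 it had 147.7 CPM against 115.2 to 119.4, and for NDUFB9 354.1 CPM against 286 to 293.4. All 5 values lay on the high side.

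The other 4 were spread over the libraries. In UT-7 under cyclocreatine, replicate 1 was low for NDUFAF3 at 25.2 CPM (27.01 to 27.22 in the others), and replicate 2 was high for NDUFAF4 at 41.64 CPM (38.59 to 38.79). In UCSD-AML1, vehicle replicate 2 was low for NDUFAB1 at 77.47 CPM (86.76 to 88.57), and cyclocreatine replicate 3 was high for NDUFV2 at 120.3 CPM (110.7 to 112.2).

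The effect of cyclocreatine was compared between lines by a test of the difference itself (edgeR, adjusted over all genes). At most the 3 largest called differences of each pair of lines are listed, and other members were called too. On the log2 scale the effect in TF-1 exceeded that in UT-7 by 0.4125 for NDUFS3, 0.4125 for NDUFAB1 and 0.3932 for NDUFB6. Without TF-1 cyclocreatine replicate 1 these values were 0.344, 0.323 and 0.334. The TF-1 effect exceeded that in UCSD-AML1 by 0.4906 for NDUFB6, 0.3901 for NDUFB4 and 0.382 for NDUFS4. Without that library these values were 0.432, 0.351 and 0.361. The effect in UT-7 exceeded that in UCSD-AML1 by 0.2725 for NDUFS4 and 0.1957 for NDUFS1.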

How the results depend on the processing

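Numbers of members called higher in each line stayed within 1.5 times the reported ones in the alternatives that kept all libraries; numbers called lower did not. In TF-1, 5 members were lower after scaling by library totals, 6 after the length correction, and 0 with no filter, limma-voom, TF-1 fitted alone or the replicate block. In UT-7, 8 were lower after scaling by library totals, 9 after the length correction, 4 with DESeq2 and 6 with UT-7 fitted alone. In UCSD-AML1, 9 were lower with the length trend removed and 7 with the line fitted alone. The effect in TF-1 and UCSD-AML1 differed for 9 members under library totals alone, and that in UT-7 and UCSD-AML1 for 4 under library totals alone and 5 after the length correction. Shares of all genes were not computed for these differences between lines. The cause was not tested. Leaving out 1 library at a time gave 20 to 27 members higher and 0 to 4 lower in TF-1, 10 to 15 and 2 to 4 in UT-7, and 13 to 16 and 2 to 4 in UCSD-AML1. Differences between lines then ranged over 10 to 17, 12 to 16 and 1 to 3 members, and vehicle differences over 38 to 42, 34 to 36 and 35 to 36 (TF-1 against UT-7, TF-1 against UCSD-AML1, UT-7 against UCSD-AML1). In one named result the direction turned: NDUFB9 in TF-1 was at -0.02298 with the length trend removed (adjusted p = 0.549, edgeR). The replicate numbers do not pair the samples (correlations of same-numbered deviations -0.048 to 0.0715; the best match was the own number in 3 of 12 cases, all in UCSD-AML1). With the replicate block, 25 members were higher and 0 lower in TF-1 (NDUFB3 was at -0.16, adjusted p = 0.0541, edgeR), 16 and 2 in UT-7, and 14 and 4 in UCSD-AML1, the differences numbered 10, 14 and 2, and the vehicle differences 42, 38 and 39. Depth limited the antisense symbols, which had as few as 5 counts in a library, and no other member fell below 130 counts.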
